A study of Mus musculus with 2 samples.

Results

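Fcgr4 encodes an activating receptor for IgG antibodies, and C1qa encodes a chain of complement C1q, which many tissue macrophages make. The cells described here are C1qa-high kidney cells in which Fcgr4 was clearly detected: 391 of the 6601 cells kept, 236 in hashed sample 1 and 155 in hashed sample 2. They were chosen by measured values. C1qa had to reach 40 UMIs (unique molecular identifiers, 1 per captured RNA molecule) per 10000 UMIs of the cell, and Fcgr4 at least 2 UMIs, with no Cd3d, Cd3e or Cd3g UMI. The chemokine genes Ccl3 and Ccl4 together had to stay under 20 per 10000, and Pf4, Ccl7 and Ccl12 together under 40. Fewer than 2 of the genes Cd163, Lyve1, Cbr2 and Ltc4s could have a UMI.

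The cells came from kidneys of B6 mice with AAN CKD, that is, chronic kidney disease from aristolochic acid nephropathy, labelled week 2. CD45-positive leukocytes were sorted after Liberase digestion and sequenced from their 3' ends in 1 library holding 2 hashed samples, each marked by its own antibody tag. The title also names W1 and a single mouse, the protocol text mentions human kidneys and the cells are labelled mesenchymal stem cells, although all genes in the files are mouse genes. The labels do not say that the hashed samples are separate animals, and no untreated kidney is among the samples used here. Classes of cells were therefore compared within the same kidneys. Each sentence that gives a pair of values gives hashed sample 1 and then hashed sample 2.

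Fc gamma receptors bind the constant part of IgG, and the mouse receptor encoded by Fcgr4 signals through the shared gamma chain made from Fcer1g to start engulfment and inflammatory signalling. It is well known on patrolling monocytes, and also on macrophages, where interferon-gamma can raise it. Interferons raise genes such as the guanylate-binding proteins, MHC genes and the chemokines Cxcl9 and Cxcl10, which attract T cells.

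The members made up 23.1% (exact 95% interval 20.6 to 25.9) and 10.1% (8.67 to 11.8) of the 1020 and 1529 C1qa-high cells. Intervals here cover counting error only. The Fcgr4 requirement set this share more than any other gate, since 70.8% and 85.2% of C1qa-high cells had fewer than 2 Fcgr4 UMIs. At the edges of the rule, the lowest C1qa value of a member was 40.1 per 10000, against 39.8 in the nearest of the 133 cells left out by that gate alone. The highest summed Ccl3 and Ccl4 value was 19.6 per 10000 in a member, against 20.02 in the nearest of 21 cells left out, and the highest summed Pf4, Ccl7 and Ccl12 value was 39.4, against 40.5 in the nearest of 54. Of the members, 120 and 92 had exactly 2 Fcgr4 UMIs, while 201 and 243 cells passing the other gates had exactly 1. Median depth was 6657.5 and 6575 UMIs in members, 6086 and 6891 in all other C1qa-high cells, and 5713.5 and 6657 in cells that passed every other gate with 0 or 1 Fcgr4 UMI. The deposited matrices held 20743037 and 25314154 UMIs over 3315 and 3700 barcodes, of which 0 were shared.

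The working name of these cells rests on C1qa, Fcgr4, Apoe and Tmem119. C1qa and Fcgr4 were set by the rule, at 7304 and 7362 CPM (counts of UMIs scaled to 1000000 UMIs of the class) for C1qa and at 422 and 372 CPM for Fcgr4. Apoe, which encodes the lipid carrier apolipoprotein E, was at 42687 and 27152 CPM in members, against 38629 and 27735 CPM in all other C1qa-high cells. Apoe thus varied more between the hashed samples than between the classes. Tmem119, best known as a microglial surface marker gene, was at 48.3 and 48.5 CPM in members, against 37.0 and 43.0 CPM in the others. After thinning each cell to 2000 UMIs, 7.66% and 7.14% of members had a Tmem119 UMI, against 7.63% and 9.30% of the cells with 0 or 1 Fcgr4 UMI and the same other gates. T cells, which should lack the gene, gave 0.230% and 0.721% at the same depth, with full median depths of 3972 and 3583 UMIs. Apoe and Tmem119 were therefore present, but neither set these cells apart from other C1qa-high cells.

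Members and all other C1qa-high cells differed in few genes. Of 2571 genes measured, meaning at least 50 CPM in 1 of the classes in each hashed sample, 24 (0.933%) reached a difference of 1.5-fold in 1 direction in each hashed sample, 12 (0.467%) higher and 12 (0.467%) lower in members. Fcgr4 among the higher genes and Ccl3, Ccl4, Ccl7, Ccl12 and Pf4 among the lower ones follow from the rule. With 1 library there is no replicate test, and folds are log2 ratios after adding 10 CPM, which understates differences of low genes.

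Of the 15 measured genes of resident macrophage identity, 1 was called against all other C1qa-high cells, Fcrls, which was lower, and the median log2 ratio was 0.00 and -0.08. C1qb, which encodes another chain of C1q, was at 7675 and 8120 CPM in members and at 7583 and 7680 CPM in the others. The fractalkine receptor gene Cx3cr1 was at 563 and 663 CPM in members and at 546 and 658 CPM in the others. Timd4, a marker gene of some long-lived resident macrophages, had 0 UMIs in members of both hashed samples. Markers of T and NK cells were low. The 8 T cell genes summed to 18.2 and 12.1 CPM in members and to 46.8 and 20.4 CPM in the others. Members had no Cd3d, Cd3e or Cd3g UMI by the rule, while the others included 44 and 44 cells with a Cd3 UMI. A lower T cell sum in members thus follows from the rule at least in part. The 6 NK cell genes summed to 2.84 and 9.52 CPM in members and to 6.72 and 3.72 CPM in the others. Ace, a patrolling monocyte gene, was at 0 and 0.866 CPM in members, and the classical monocyte gene Ly6c2 was at 1.14 and 1.73 CPM. Other monocyte genes were present: Ear2, of the patrolling monocyte list, was at 74.4 and 66.7 CPM in members, against 51.8 and 64.2 CPM in the others. Ccr2, the receptor gene that lets classical monocytes leave the marrow, was at 484 and 700 CPM in members, against 465 and 623 CPM in the others.

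**Figure D1:**
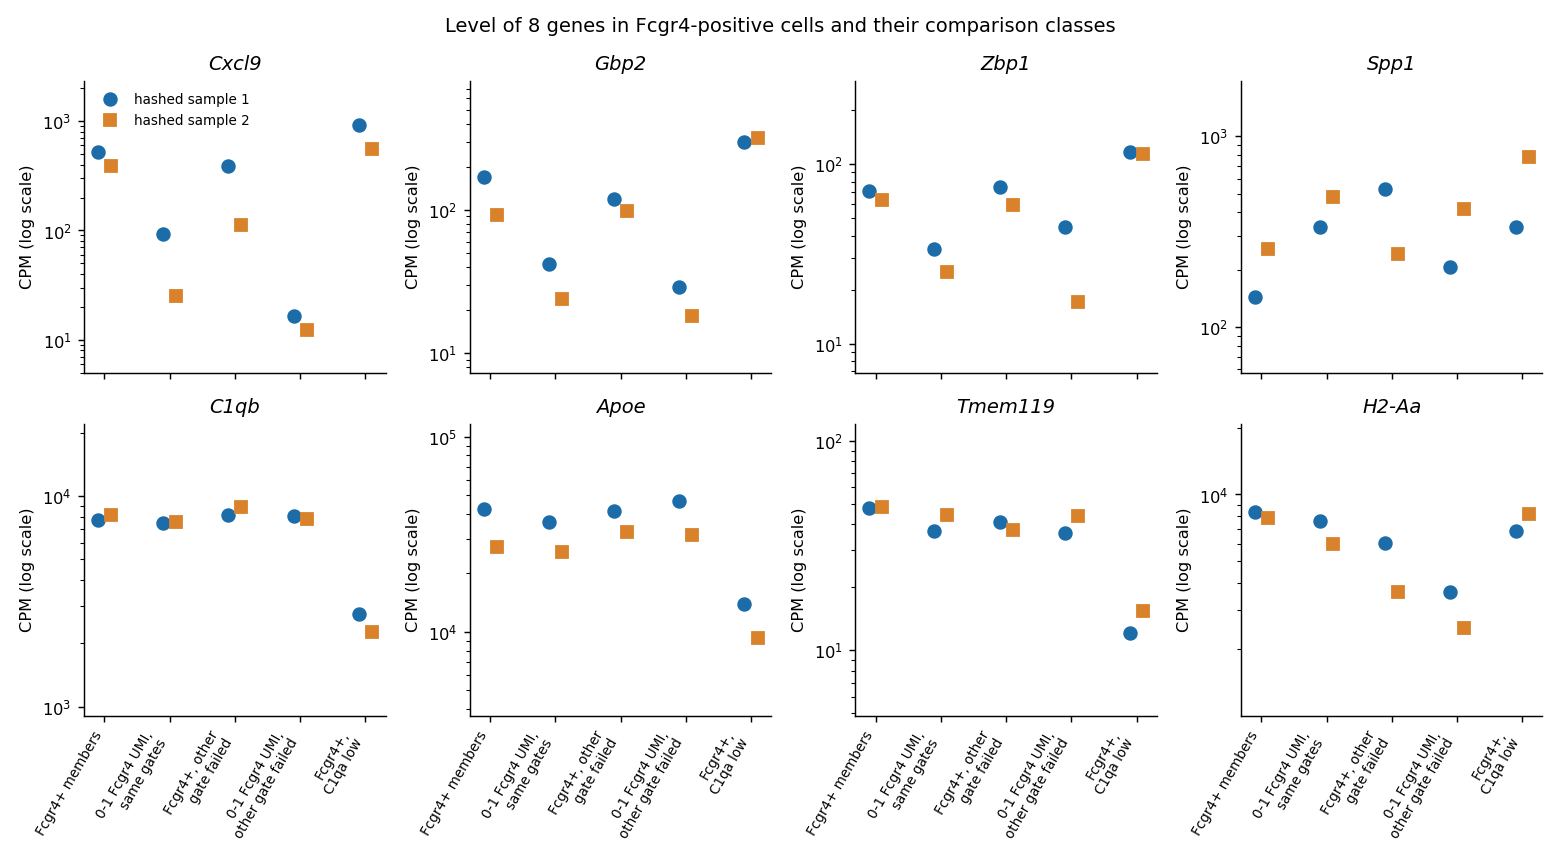
Level of 8 genes (CPM, log axis) in the Fcgr4-positive members and 4 other classes of cells, with 1 point per hashed sample. Cxcl9 and Gbp2 lie above the classes with 0 or 1 Fcgr4 UMI in both classes of C1qa-high cells with 2 or more, while C1qb, Apoe and Tmem119 drop in Fcgr4-positive cells with low C1qa.

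The higher genes were led by interferon-response genes. Cxcl9, the chemokine gene, was at 526 and 386 CPM in members, against 102 and 26.2 CPM in the others (log2 ratios 2.25 and 3.45). Gbp2, a guanylate-binding protein gene, was at 170 and 91.8 CPM in members, against 47.5 and 26.0 CPM in the others (3.58-fold and 3.52-fold before the added CPM). Zbp1, which encodes a sensor of unusual nucleic acids, was at 71.0 and 63.2 CPM in members, against 39.3 and 24.5 CPM in the others (log2 ratios 0.71 and 1.08). For these 3 genes, which were picked by their ratios, both hashed samples of members lay above both of the others. The share of all measured genes that separate in this way was not counted. Fgl2, which encodes a fibrinogen-like protein of macrophages and T cells, had log2 ratios of 1.03 and 0.59, and Ifi47, an interferon-inducible GTPase gene, 0.61 and 0.85. H2-T23, a non-classical MHC class I gene, was at 258 and 208 CPM in members, against 167 and 121 CPM in the others. Other higher genes under the naming rule included Phf11b, Slamf7 and Mndal.

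Few other members of the interferon list passed. Of its 18 genes, 8 were measured and 2 were called, both higher, Gbp2 being described above. The median log2 ratio of the measured ones was 0.36 and 0.53, beside -0.02 and -0.05 over all measured genes. Isg15 was at 48.8 and 79.6 CPM in members, against 14.8 and 22.2 CPM in the others (log2 ratios 1.24 and 1.48), and missed a call because hashed sample 1 was under 50 CPM. Irf7 was at 41.4 and 31.2 CPM in members, against 8.90 and 12.3 CPM in the others (log2 ratios 1.44 and 0.89), under 50 CPM in both. Per cell, the summed list had a median of 16.9 and 14.4 per 10000 in members, against 14.3 and 11.8 in the others, with members ranging up to 146 and 170.

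**Figure D2:**
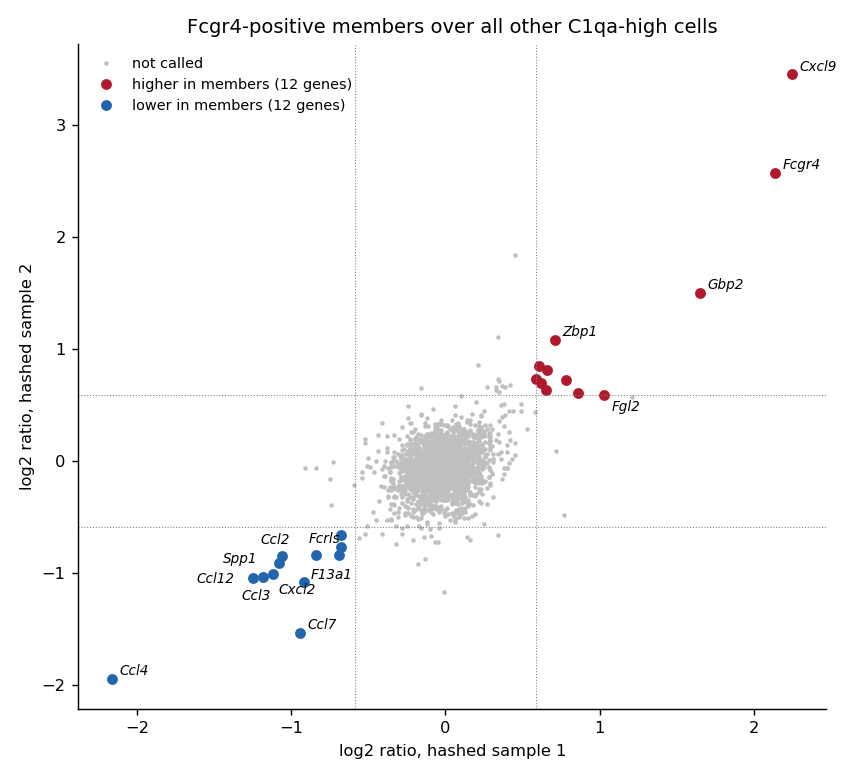
Log2 ratio of members over all other C1qa-high cells in hashed sample 1 (horizontal) and hashed sample 2 (vertical), 1 point per measured gene, with dotted lines at 1.5-fold. Most genes lie near 0 on both axes, and Cxcl9, Fcgr4 and Gbp2 stand apart at the upper right.

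A small number of cells carried most of the Cxcl9 UMIs. A Cxcl9 UMI was found in 28 of 236 members (11.9%, interval 8.03 to 16.7) and 11 of 155 (7.10%, 3.60 to 12.3), at medians of 8945 and 10646 UMIs per cell. In the cells with 0 or 1 Fcgr4 UMI and the same other gates, the share was 5.07% and 3.32%, and in T cells 1.64% and 1.80%. It was 14% (5.82 to 26.7) and 9.23% (3.46 to 19.0) in C1qa-high cells with 2 or more Fcgr4 UMIs that failed another gate, and 19.7% (11.2 to 30.9) and 17.7% (10.04 to 27.9) in Fcgr4-positive cells with low C1qa. Thinned to 2000 UMIs, the shares were 9.79% and 5.84% of members, 3.61% and 1.66% of those cells, and 1.15% and 0.721% of T cells. The 10 members richest in Cxcl9 held 82.0% and 99.8% of the members' Cxcl9 UMIs, and in hashed sample 2 a single cell held 55.4%. Such concentration was not particular to members. Among cells with 0 or 1 Fcgr4 UMI and the same other gates, the top 10 held 83.8% and 86.6% and the top cell 23.2% and 25.5%. Members with a Cxcl9 UMI had Gbp2 at 692 and 561 CPM, against 71.5 and 41.2 CPM in members without one, and Zbp1 at 143 and 187 CPM, against 57.3 and 49.9 CPM. Their Apoe was at 21250 and 23403 CPM, against 46717 and 27556 CPM in members without a Cxcl9 UMI.

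When every cell with a Cxcl9 UMI was left out of both classes, a check added after the data were seen, 14 genes were called in place of 24, and Fcgr4 was the only one of them higher. Leaving those cells out removes the interferon-rich cells by one of their own genes. The mean log2 ratio of the hashed samples was then 1.01 for Gbp2, 0.77 for Zbp1 and 0.56 for H2-T23. Gbp2 and Zbp1 were then at 41.2 and 49.9 CPM in members of hashed sample 2, under the 50 CPM that a call needs, so they could not be called at any fold. H2-T23 no longer reached 1.5-fold in both hashed samples. Thinning also cost calls: at 2000 UMIs per cell 16 of the 24 were kept, and Fgl2, Mndal, Slamf7, Phf11b and H2-T23 were among those lost.

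**Figure D3:**
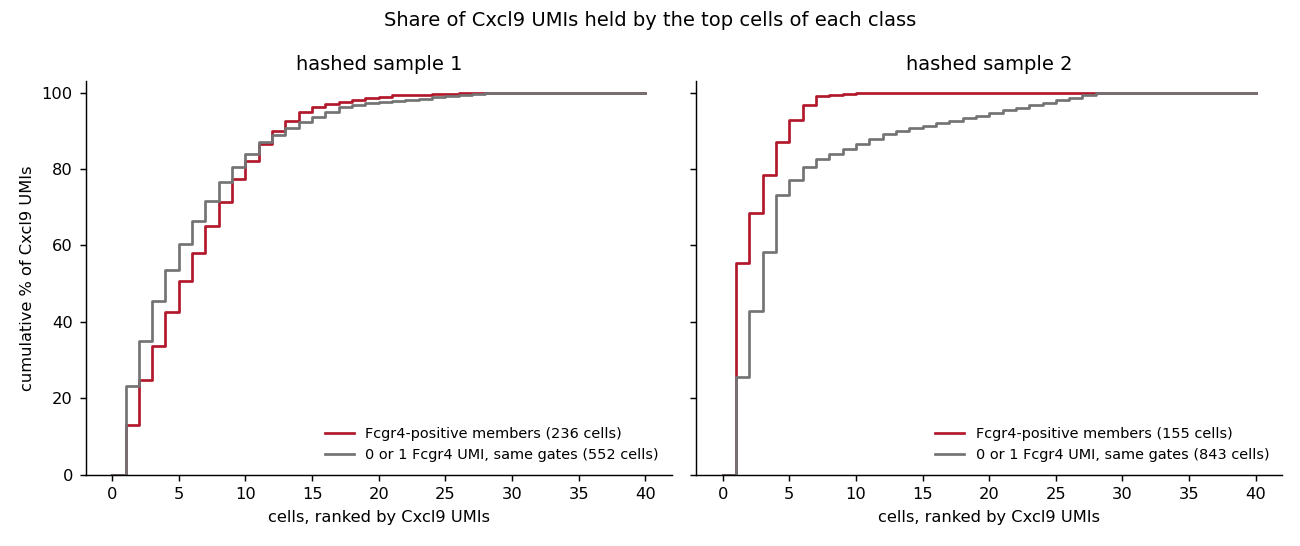
Cumulative percentage of Cxcl9 UMIs (vertical) over cells ranked by their Cxcl9 UMIs (horizontal) in members and in cells with 0 or 1 Fcgr4 UMI and the same other gates. In hashed sample 2 the curve of the members reaches 55.4% with the first cell.

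The lower genes in members included chemokine and monocyte genes. Cxcl2, a chemokine gene that attracts neutrophils, was at 143 and 235 CPM in members, against 322 and 484 CPM in the others (log2 ratios -1.12 and -1.01). Spp1, which encodes osteopontin, was at 143 and 255 CPM in members, against 313 and 488 CPM in the others (log2 ratios -1.08 and -0.91). F13a1, which encodes a coagulation factor subunit, was at 153 and 117 CPM in members, against 298 and 257 CPM in the others (log2 ratios -0.92 and -1.08). For these 3 genes, also picked by their ratios, the levels of members and others did not overlap. The share of non-overlapping genes over all measured genes was not counted. The monocyte chemoattractant gene Ccl2 had log2 ratios of -1.06 and -0.85, the matrix gene Fn1 (fibronectin) -0.68 and -0.77, and the macrophage Fc receptor-like gene Fcrls -0.84 and -0.84. Fxyd2, which encodes a subunit of the renal sodium pump, had -0.69 and -0.84. At C1qa of at least 80 per 10000, the calls of Spp1, Ccl2, Fn1 and Fxyd2 were lost. The uneven spread of Spp1 UMIs over cells is given below. Of the 6 measured classical monocyte genes 2 were lower, Fn1 and F13a1. Of the 14 measured dissociation stress genes none was called, with medians of -0.31 and -0.06, beside 0.933% called over all measured genes.

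Because cells of the other gates were also removed from the members, the same comparison was made with cells that differed by the Fcgr4 gate alone. Of 2559 measured genes, 16 (0.625%) were called, 12 (0.469%) higher and 4 (0.156%) lower in members. The higher genes again included Cxcl9, Gbp2, Fgl2, Zbp1, Ifi47, Phf11b, Mndal and H2-T23, and added Cxcl10. Cxcl10 was at 92.0 and 232 CPM in members, against 22.0 and 19.9 CPM in cells with 0 or 1 Fcgr4 UMI, and a single member held 55.6% of its UMIs in hashed sample 2. T cells, as a background, had Cxcl10 at 77.1 and 50.6 CPM, and after thinning to 2000 UMIs a Cxcl10 UMI was found in 5.96% and 4.55% of members and in 5.87% and 4.09% of T cells. The lower genes were Arg1, Spp1, Fn1 and Cxcl2. Arg1, which encodes arginase 1, was at 64.7 and 4.33 CPM in members, against 123 and 66.6 CPM. Its call was lost in 6 settings: at least 1 and at least 3 Fcgr4 UMIs, cells of 3000 to 12000 UMIs, C1qa of at least 80 per 10000, thinning and the mean over cells. The call of Spp1 was lost at 3000 to 12000 UMIs and at C1qa of at least 80, and that of Fn1 at C1qa of at least 80. A few cells outside the members held much of the Spp1: among those with 0 or 1 Fcgr4 UMI, 1 cell had 31.0% and 17.6% of the Spp1 UMIs and 10 cells had 51.4% and 48.7%. A Spp1 UMI was found in 48.3% (41.8 to 54.9) and 54.8% (46.7 to 62.8) of members, against 50.9% (46.7 to 55.2) and 60.9% (57.5 to 64.2) of those cells. Ccl2, F13a1 and Fcrls were not called here. Without the cells holding a Cxcl9 UMI, 9 genes were called, 3 higher and 6 lower, and Cxcl10 had a mean log2 ratio of -0.05.

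By summed UMIs, the interferon genes were highest in the cells with the most Fcgr4 UMIs, but in hashed sample 2 this rested partly on single cells. Gbp2 was at 24.1 and 23.4 CPM in cells with 0 Fcgr4 UMIs, 71.5 and 25.1 with 1, 99.8 and 26.5 with 2, 124 and 66.6 with 3, 131 and 195 with 4, and 495 and 410 with 5 or more. In hashed sample 2, the 92 members with 2 Fcgr4 UMIs thus stood near the 600 cells with 0 in Gbp2. In those 92 members Cxcl9 was at 2.95 CPM, against 34.0 CPM in the 600 cells, and Zbp1 was at 32.4 CPM, against 21.0 CPM. Fn1 ran the other way, at 407 and 432 CPM with 0 Fcgr4 UMIs and at 48.0 and 77.4 CPM with 5 or more. The top step held only 31 and 13 cells, and their median depth was 7925 and 10880 UMIs, against 5494 and 6471 UMIs with 0 Fcgr4 UMIs. Single cells also weighed on this order. A single member of hashed sample 2 held 34 of the 106 Gbp2 UMIs of members, and 1 held 247 of the 446 Cxcl9 UMIs. Each lower step of members held fewer UMIs of the gene than that, so these UMIs lie in the top step. The largest counts in 1 member of hashed sample 1 were 23 of 299 for Gbp2 and 121 of 926 for Cxcl9. The order without these cells was not computed, and the part of depth in it was not tested.

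**Figure D4:**
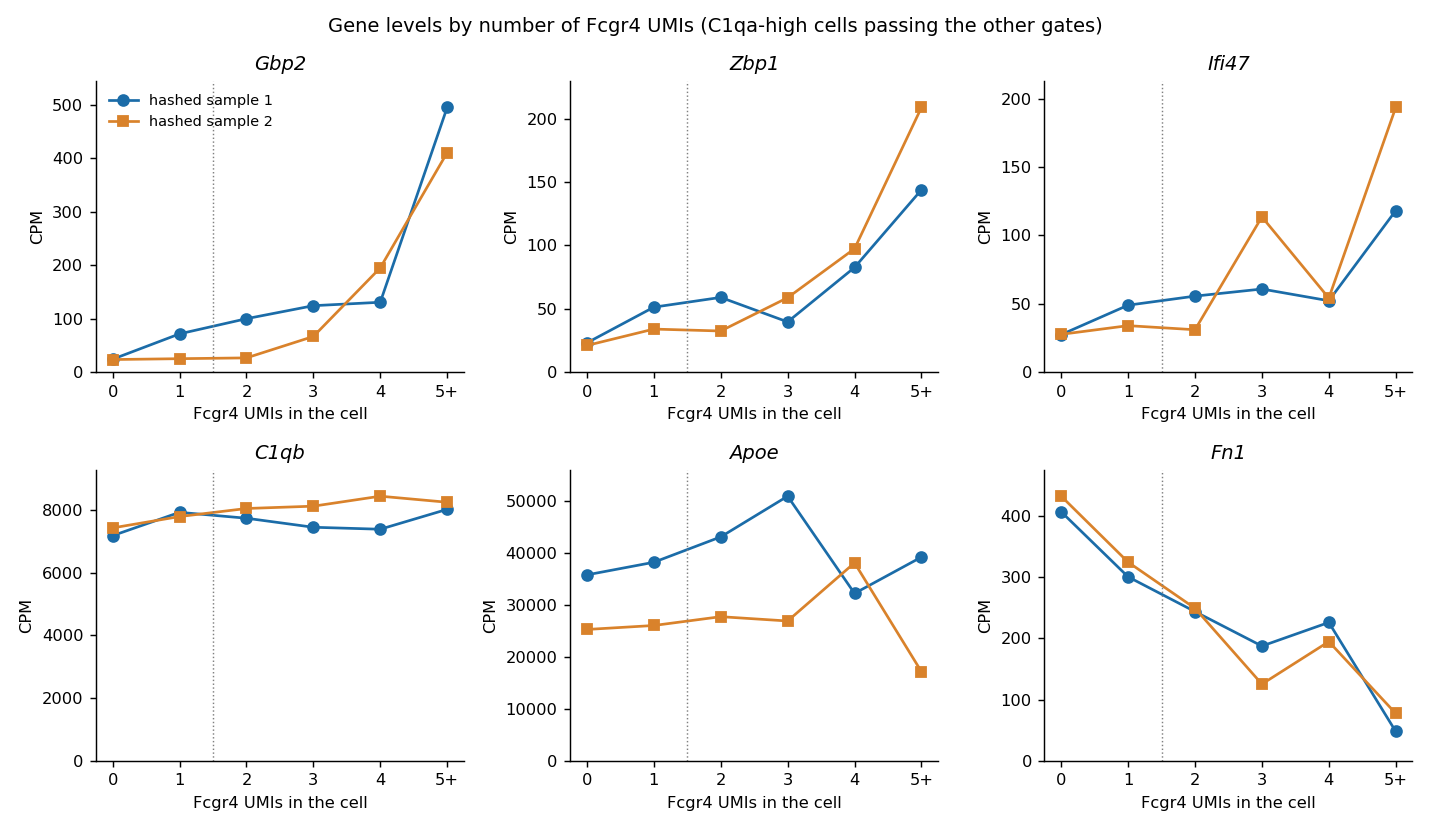
Level of 6 genes (CPM, vertical) against the number of Fcgr4 UMIs in the cell (horizontal) in C1qa-high cells passing the other gates, with 1 line per hashed sample and a dotted line between cells outside and inside the members. Gbp2 reaches 495 and 410 CPM at 5 or more Fcgr4 UMIs, and in hashed sample 2 it is still 26.5 CPM at 2.

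A separate set of C1qa-high cells, those that failed another gate, gave a second look at Fcgr4. Here 50 and 65 cells with 2 or more Fcgr4 UMIs were compared with 138 and 422 cells with 0 or 1, none of them members. Of 2681 measured genes 22 (0.821%) were called, 16 (0.597%) higher and 6 (0.224%) lower in the Fcgr4-positive cells. Cxcl9 was at 392 and 113 CPM with 2 or more Fcgr4 UMIs, against 16.6 and 12.3 CPM with 0 or 1, and Cxcl10 at 252 and 485 CPM, against 65.2 and 53.2 CPM. Ifitm3, an interferon-induced membrane protein gene, was at 928 and 1063 CPM, against 464 and 492 CPM. Apart from the genes of the rule, 6 higher genes were shared with the comparison inside the gates, Cxcl9, Cxcl10, Gbp2, Zbp1, Fgl2 and Phf11b, which is 54.5% of the 11 inside and 40% of the 15 outside. Of the lower genes 0 were shared, and Spp1 had log2 ratios of 1.33 and -0.76 outside the gates. Cells with a Cxcl9 UMI mattered here too, since 10 genes were called without them, and Cxcl9 UMIs came from 7 and 6 of the Fcgr4-positive cells. In hashed sample 1, 1 of the 50 cells held 112 of the 152 Cxcl9 UMIs (73.7%), and in hashed sample 2, 1 of the 65 held 167 of the 270 Cxcl10 UMIs (61.9%).

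The start regions of the genes that were higher in members are shown because they can be read for the letters of interferon motifs. RefSeq promoters on GRCm38.p6, from 250 bases before to 50 after the gene start, were found for 11 of 13 genes higher in either comparison of members with other C1qa-high cells. They were searched on both strands for GAAA, 2 bases of any kind and GAAA again, the core of the interferon-stimulated response element, and for TTC, 3 bases of any kind and GAA, the gamma-activated (GAS) element, whose matches did not overlap. The response element was found in 7 of the 11 genes (Fcgr4, Gbp2, Cxcl10, H2-T23, Phf11b, Mndal and Rnase6, the last named after its values were seen), and in 3.44% of all 32851 promoters. Fcgr4 is among the higher genes by the rule. The first share counts genes, of which Mndal had 2 promoters and Rnase6 3, while the second counts single promoters, so the shares are not like for like. The GAS letters were found in 1 of the 11, Fgl2, and in 8.30% of all promoters, and Cxcl9, Ifi47 and Slamf7 had neither. A match is a description of letters in this window, not a binding site. The promoters of Fcgr4 (chr1:171018676-171018975, plus strand), Gbp2 (chr3:142620413-142620712, plus strand), Cxcl10 (chr5:92348840-92349139, minus strand) and Cxcl9 (chr5:92328030-92328329, minus strand) are given from 5' to 3' with the response element in capitals. It starts at position -73 from the gene start in Fcgr4, -59 in Gbp2 and -213 in Cxcl10, and Cxcl9 is shown as the gene with the largest ratio and no match.
Fcgr4: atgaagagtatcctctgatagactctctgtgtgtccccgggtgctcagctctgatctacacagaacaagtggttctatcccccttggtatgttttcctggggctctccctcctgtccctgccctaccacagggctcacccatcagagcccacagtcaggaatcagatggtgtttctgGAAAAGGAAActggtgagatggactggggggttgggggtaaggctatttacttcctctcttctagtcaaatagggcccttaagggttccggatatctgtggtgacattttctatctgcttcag
Gbp2: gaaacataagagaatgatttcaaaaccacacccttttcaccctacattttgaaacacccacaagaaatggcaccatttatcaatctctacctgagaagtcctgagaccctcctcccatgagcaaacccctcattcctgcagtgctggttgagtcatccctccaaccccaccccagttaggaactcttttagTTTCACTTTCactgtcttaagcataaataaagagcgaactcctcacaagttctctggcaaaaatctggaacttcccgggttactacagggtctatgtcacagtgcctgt
Cxcl10: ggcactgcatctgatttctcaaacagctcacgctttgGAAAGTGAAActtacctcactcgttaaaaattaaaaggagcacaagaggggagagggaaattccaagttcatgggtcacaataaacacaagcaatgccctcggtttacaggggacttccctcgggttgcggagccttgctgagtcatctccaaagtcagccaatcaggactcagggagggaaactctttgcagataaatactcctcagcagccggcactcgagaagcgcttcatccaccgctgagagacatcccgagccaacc
Cxcl9: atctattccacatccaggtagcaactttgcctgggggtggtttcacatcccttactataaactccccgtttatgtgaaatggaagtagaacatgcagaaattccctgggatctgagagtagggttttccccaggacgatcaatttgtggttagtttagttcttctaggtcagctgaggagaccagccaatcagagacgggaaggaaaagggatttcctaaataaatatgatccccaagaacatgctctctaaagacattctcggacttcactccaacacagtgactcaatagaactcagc

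No other Fc receptor gene was called against all other C1qa-high cells. Fcgr1, the high-affinity IgG receptor gene, was at 259 and 279 CPM in members, against 216 and 237 CPM in all other C1qa-high cells. Fcgr3, the low-affinity activating receptor gene, was at 1133 and 1071 CPM in members, against 1113 and 993 CPM. The inhibitory receptor gene Fcgr2b was at 765 and 617 CPM in members, against 756 and 636 CPM. Fcer1g, which encodes the shared signalling chain, was at 2400 and 2671 CPM in members, against 2282 and 2541 CPM. Of the 14 measured genes of the Fc receptor and signalling list, 0 were called, and the medians were 0.02 and 0.07. The lists for complement (10 measured), lysosome (16) and iron handling (8) also had 0 called genes. Over all 2571 measured genes only 0.933% were called, so 0 calls in lists of this size say little about these genes. By Fcgr4 step, Fcgr1 was at 182 and 205 CPM with 0 Fcgr4 UMIs and at 365 and 542 CPM with 5 or more. Fcgr3 was at 1046.5 and 930 CPM, then 1111 and 952 CPM. Against Fcgr4-positive cells with low C1qa, Fcgr1, Fcgr3 and Trem2 were called higher and Pira2 lower, of 16 measured. All of these calls were lost at C1qa of at least 80 per 10000. At that setting the C1qa-low class also took in the members under 80, and the median C1qa of members was 69.4 and 73.6 per 10000. Loss of a call there thus follows at least in part from the moved cells.

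MHC class II genes, which present antigen to CD4 T cells, were spread over a wide range in these cells. H2-Eb1, H2-Aa and H2-Ab1 summed had a median of 245 and 260 per 10000 in members, against 185 and 90.7 in all other C1qa-high cells. H2-Aa was at 8354 and 7809 CPM in members, against 6586 and 4693 CPM in the others, and its log2 ratio of 0.34 in hashed sample 1 kept it from being called. Of the 9 measured genes of the MHC class II list 0 were called, with medians of 0.34 and 0.62, beside 0.933% called over all measured genes. Cells under 40 per 10000, here called MHC II-low, made up 9.75% (6.28 to 14.3) and 22.6% (16.3 to 30.0) of members, 14.7% (11.8 to 17.9) and 31.0% (27.8 to 34.2) of cells with 0 or 1 Fcgr4 UMI and the same other gates, and 21.2% (18.4 to 24.2) and 41.8% (39.1 to 44.4) of all other C1qa-high cells. The intervals of members overlapped those of the cells with the same gates and lay below those of all others. T cells, as a background, were MHC II-low in 97.2% and 96.6%.

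**Figure D5:**
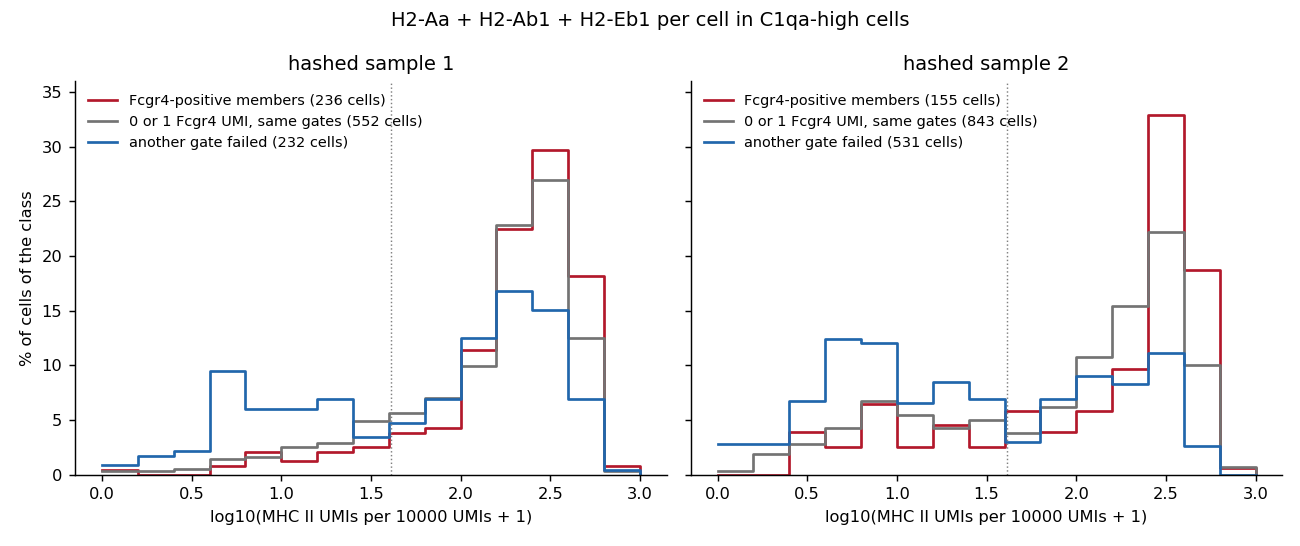
Percentage of cells of each class (vertical) by the log10 of summed H2-Eb1, H2-Aa and H2-Ab1 UMIs per 10000 plus 1 (horizontal), for members, cells differing by the Fcgr4 gate alone and C1qa-high cells failing another gate. The dotted line marks 40 per 10000, below which lie 9.75% and 22.6% of members.

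The MHC II-low members, 23 and 35 cells, were set against the 213 and 120 MHC II-high members. Of 2683 measured genes 116 (4.32%) were called, 63 (2.35%) higher and 53 (1.98%) lower in MHC II-low members. The median over all genes was 0.13 and 0.11, and with TMM factors, a scaling that trims the genes of extreme ratio, which moved it to -0.15 and -0.07, the split became 16 higher and 92 lower. The higher genes included macrophage genes with resident and engulfment roles. Fcrls had 151 and 420 CPM in MHC II-low members, against 39.0 and 122 CPM in MHC II-high members. Stab1, a scavenger receptor gene, was at 667 and 626 CPM, against 332 and 323 CPM, and Mrc1, the mannose receptor gene, at 1462 and 1249 CPM, against 690 and 719 CPM. Gas6, which encodes a bridge between dying cells and their engulfing receptors, was at 174 and 167 CPM, against 60.4 and 70.1 CPM. The growth factor gene Igf1 was at 81.2 and 105 CPM, against 34.0 and 39.0 CPM. P2ry12, an ADP receptor gene of microglia and some macrophages, was at 128 and 97.3 CPM, against 52.2 and 44.5 CPM. In MHC II-low members these levels rest on 14 and 27 UMIs of Igf1 and on 22 and 25 of P2ry12. The call of Igf1 was lost at 4 Fcgr4 UMIs per 10000, and that of P2ry12 at an MHC II dividing level of 80. All of these levels in MHC II-low members lay above both levels in MHC II-high members. The genes were picked from the called ones, and the share over all measured genes was not counted.

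Most Cxcl9 and Cxcl10 UMIs of the members were in MHC II-high cells, but in few of them. Cxcl9 had 2 and 1 UMIs in MHC II-low members, against 924 and 445 in MHC II-high members, where 10 cells held 82.1% and 100% of them and 1 cell held 55.5% in hashed sample 2. A Cxcl9 UMI was found in 8.70% (1.07 to 28.0) and 2.86% (0.0723 to 14.9) of MHC II-low members, against 12.2% (8.13 to 17.4) and 8.33% (4.07 to 14.8) of MHC II-high members, and these intervals overlap. Cxcl10 had 0 UMIs in 23 and 35 MHC II-low members, which allows a share of cells of up to 14.8% and 10% (exact 95% intervals), against 11.3% and 9.17% of MHC II-high members. Its share thus could not be told apart at these cell numbers, and 1 MHC II-high member held 149 of the 268 Cxcl10 UMIs in hashed sample 2. Ciita, which encodes the master regulator of MHC class II genes, stood at 5.80 and 27.2 CPM among MHC II-low members but at 102 and 121 CPM among MHC II-high members. Il1b, the interleukin 1 beta gene, was at 17.4 and 62.3 CPM, against 186 and 230 CPM, and Mmp12, a macrophage elastase gene, at 52.2 and 3.89 CPM, against 125 and 236 CPM. Of the MHC class II list 7 of 9 measured genes were lower, 3 of them by construction. Of the 10 measured interferon genes 4 were lower, Isg15, Irf1, Gbp2 and Gbp5. All 4 of these interferon calls were lost when cells with a Cxcl9 UMI were left out. That setting removes interferon-rich cells by one of their own genes. Of the 4 measured type 2 dendritic cell genes all 4 were lower, Clec4b1, Mgl2, Napsa and Plbd1. Dissociation stress genes moved with the split, 9 of 14 measured being lower, with Fos at 203 and 362 CPM in MHC II-low members, against 571 and 549 CPM in MHC II-high members. The part of handling stress in these differences was not tested.

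Fcgr4 was also found outside the C1qa-high cells, in 71 and 79 cells with 2 or more UMIs, no Cd3 UMI and C1qa under 40 per 10000. Of 2726 measured genes 261 (9.57%) were called, 112 (4.11%) higher and 149 (5.47%) lower in members, and C1qa is low in the other class by the rule. TMM factors turned the split to 156 higher and 120 lower. Members were higher in 11 of 14 measured genes of resident macrophage identity, with Cx3cr1 at 563 and 663 CPM, against 189 and 238 CPM in the C1qa-low cells, and Stab1 at 364 and 390 CPM, against 108 and 126 CPM. Apoe was at 42687 and 27152 CPM in members, against 13881 and 9264 CPM. The chemokine gene Ccl8 was at 386 and 410 CPM in members, against 26.0 and 10.7 CPM, and Ms4a7, a membrane protein gene of macrophages, at 506 and 625 CPM, against 78.1 and 163 CPM. Each of these genes was picked from the called ones, so members lay above the C1qa-low cells in both hashed samples by that choice.

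Members were lower in monocyte and dendritic cell genes. Plac8, a classical monocyte gene, was at 3.41 and 6.93 CPM in members, against 398 and 212 CPM in C1qa-low cells, and the monocyte gene Chil3 at 39.7 and 2.60 CPM, against 644 and 259 CPM. Of the classical monocyte list 7 of 10 measured genes were lower and 1 higher, F13a1. Of the patrolling monocyte list 5 of 8 were lower, with Ear2 at 74.4 and 66.7 CPM, against 311 and 314 CPM, and Nr4a1, the transcription factor gene of patrolling monocytes, at 18.7 and 25.1 CPM, against 106 and 189 CPM. All 6 measured type 2 dendritic cell genes were lower, Cd209a being at 2.27 and 12.98 CPM, against 67.7 and 175 CPM. The calls of Cd209a, Clec4b1, Mgl2 and Plbd1 were lost with at least 3 Fcgr4 UMIs and at 4 per 10000. Those of Cd209a, Clec4b1 and Plbd1 were also lost after thinning, while those of Napsa and Tnip3 were kept in these settings. Interferon genes did not lead in members here: Gbp2 was lower, at 170 and 91.8 CPM, against 299 and 317 CPM, a call lost with at least 1 Fcgr4 UMI, 4 per 10000 and C1qa of at least 80. Of the 15 measured stress genes 9 were lower in members, Nr4a1 among them, so this gene counts in both the patrolling monocyte and the stress list. The kidney tubule genes Umod and Gpx3 were also lower. Umod had a mean log2 ratio of 0.03 in cells of 3000 to 12000 UMIs. Its call was also lost at 1 or more Fcgr4 UMIs, at 4 per 10000 and at C1qa of at least 80 per 10000. For Gbp2 and Umod alike, the last setting moved members under 80 into the C1qa-low class. The 7 proximal tubule genes summed to 227 and 164 CPM in members and to 1246 and 569 CPM in C1qa-low cells. Median depth was 6657.5 and 6575 UMIs in members and 7654 and 7499 UMIs in C1qa-low cells, and the part of tubule RNA, stress and depth was not tested.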

How the data were processed

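Per the file headers, the deposited values are raw UMI counts per gene and cell, written by the authors' run of Cell Ranger 6.1.1 with no normalization. The mm10 build, Cell Ranger 6.0 and Seurat 4.3.0 are listed per the submitters' processing notes. The Visium section was not analysed here.

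Barcodes with at least 500 UMIs, 200 genes and at most 10% mitochondrial UMIs were kept. UMIs were summed per class and hashed sample and scaled to CPM. Log2 ratios had 10 CPM added. A gene was measured at 50 CPM in at least 1 class in each hashed sample and called at 1.5-fold the same way in both. Intervals for shares are Clopper-Pearson and for count ratios exact conditional, at 95%. No test was made, since 1 library gives no replicates.

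Members, 35 gene lists and comparisons were chosen with earlier results of these data known. Named genes are the 10 highest and 10 lowest called genes by mean log2 ratio, without genes of the rule, sex-linked, T cell receptor, immunoglobulin, ribosomal, mitochondrial and unnamed genes, plus at most 6 genes of each list. Scrublet marked 22 and 7 cells, too few to be a working doublet filter, 0 of them members. No doublets were removed. A few genes and results are not reported here. The calling rule was tried on simulated Poisson counts with known changes, drawn from class totals. Such counts do not hold the uneven spread of UMIs over cells, so they do not bear on calls carried by a few cells. Python 3.11.15, scipy 1.17.1, scanpy 1.11.5 and edgeR 4.0.16 (TMM factors only) were used.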

Additional observations from a re-analysis of the deposited data

Results flagged for a closer look

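Some listed genes reached 1.5-fold in opposite directions in the hashed samples. None of these differences between hashed samples was tested. Between members and C1qa-low Fcgr4-positive cells, the lysosomal lipase gene Lipa had log2 ratios of -0.66 in hashed sample 1 and 0.78 in hashed sample 2. Among C1qa-high cells failing another gate, cells with 2 or more Fcgr4 UMIs against those with 0 or 1 had log2 ratios of 1.26 and -1.45 for Il1b, 1.33 and -0.76 for Spp1, and -0.83 and 0.83 for Klf2. MHC II-low against MHC II-high members had log2 ratios of -1.54 and 1.15 for the proliferation-associated gene Stmn1, 0.61 and -0.65 for the fatty acid receptor gene Cd36, and 0.79 and -1.59 for the chemokine gene Ccl6.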

How the results depend on the processing

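The Fcgr4 gate is in UMIs, so it favours deep cells. At least 1 Fcgr4 UMI made members 42.8% and 26% of C1qa-high cells, at least 3 UMIs 11.4% and 4.12%, and at least 4 per 10000 13.2% and 5.1%. C1qa of at least 80 per 10000 gave 12.1% in hashed sample 2. MHC II-low members were 6.03% and 15.9% with at least 3 Fcgr4 UMIs, 12.8% in hashed sample 2 with at least 4 per 10000, and 15.3% and 31% with a dividing level of 80.

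Counts of called genes moved by over 1.5 times under these settings. For members against all other C1qa-high cells (24): 48 (at least 3 UMIs), 54 (4 per 10000), 47 (C1qa 80), 45 (20 CPM), 50 (no filter), 51 and 75 (hashed sample 1 or 2 alone) and 14 (Cxcl9 cells left out). For the Fcgr4 gate alone (16): 10 (at least 1 UMI), 36, 49, 36, 32, 43, 38, 56 and 9. Outside the gates (22): 6, 80, 148, 89, 60, 123, 266, 126 and 10 in that order, with 43 (cells of 3000 to 12000 UMIs), 130 (thinned) and 34 (pseudocount 1 CPM). For C1qa-low cells (261): 84 (C1qa 80, where that class also took in members under 80), 424 (20 CPM), 603 (no filter), 489 and 548 (1 hashed sample). For the MHC II split (116): 336, 420, 254 (20 CPM), 435, 749 and 580.

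Signs turned in 6 named values, as mean log2 ratios. Cxcl10 had -0.05 for the Fcgr4 gate alone without Cxcl9 cells. Against C1qa-low cells, Umod had 0.03 and Arg1 0.31 at 3000 to 12000 UMIs, and Hist1h1b -0.71 at C1qa 80. With 4 Fcgr4 UMIs per 10000, Hmox1 had -1.16 outside the gates and Ctsf -0.46 in the MHC II split. The causes were not tested. No paired analysis was possible because there is 1 library and no test. Small classes, 50 cells outside the gates and 23 MHC II-low members, limit both of those comparisons.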

Other observations

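Cell cycle genes did not mark these cells. At least 2 UMIs of Mki67 and Top2a together were found in 5.93% (3.28 to 9.75) and 5.81% (2.69 to 10.7) of members, against 5.61% (4.11 to 7.46) and 10.0% (8.51 to 11.8) of all other C1qa-high cells. The intervals overlapped in both hashed samples. Between hashed samples, 144 of 2803 measured genes (5.14%) differed by at least 1.5-fold in members, against 84 of 2827 (2.97%) in all other C1qa-high cells, with 236 and 155 cells behind the first share and 784 and 1374 behind the second.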
